A study of Homo sapiens with 2 samples.

Results

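The G2/M and mitosis genes are a set of 42 genes that act from the G2 phase of the cell cycle to the separation of the daughter cells. They were chosen by symbol from the count tables of 2 human lines. The parental line, MDA-MB-231, was established from a triple negative breast cancer (one without hormone receptors or HER2 amplification). The other, RT-R-MDA-MB-231, was selected from it for resistance to radiotherapy with doses of 2 Gy of X-rays until 50 Gy had been given. Both lines were grown in the same serum-containing medium, and each was sequenced as 1 library of 3' tags from total RNA. All 42 genes were present among the 24462 symbols of both tables, and all 42 passed the minimum of 20 counts in a library that 12644 genes passed. With 1 library per line there is no replicate check and no test across cultures. The 95% intervals given here cover counting error only, and PCR copies of 1 molecule are not told apart.

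Entry into mitosis is driven by the kinase CDK1 bound to cyclin B, and its exit by the anaphase-promoting complex (APC/C), a ubiquitin ligase that marks securin and the cyclins for destruction. In between, chromosomes attach to the spindle through kinetochores, and the spindle assembly checkpoint holds the APC/C back until all of them are attached. Most genes of this set are transcribed late in the cell cycle, and the DREAM and MMB-FOXM1 complexes act on their promoters through a cell cycle homology region, often next to CCAAT boxes bound by NF-Y. Such transcripts are scarce in resting cells and plentiful in cells about to divide, so they are widely used as readouts of proliferation. In bulk RNA, fewer cells in G2 or mitosis and less of each transcript per cell cannot be told apart.

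Many promoters of the set, though not all, share letters that are shown first. RefSeq promoter windows of 300 bases (250 before and 50 after the annotated start, assembly GRCh38.p14) were found for 35 of the 42 genes. The genes without one were AURKA, BIRC5, BUB3, FOXM1, TPX2, TTK and UBE2C. The letters searched, on both strands, were CCAAT for the NF-Y box and either TTTGAA or else TTCGAA for the cell cycle homology region. The 6 stretches below end at the last base before the start and run 5' to 3' on the gene's strand, with capitals for CCAAT (or its reverse form, ATTGG) and for the region's TTTGAA (or its reverse form, TTCAAA). All 6 hold both kinds of letters, which 22 of the 35 genes with a window held. These 6 were picked from across the range of ratios given further on. CKS2 and DLGAP5 were among the lowest in RT-R, MKI67 and PLK1 lay between, and CCNB2 and CDC20 were close to equal. They lie at chr9:89311035-89311194 (CKS2, plus strand), chr14:55191586-55191730 (DLGAP5, minus), chr10:128126424-128126553 (MKI67, minus), chr16:23678759-23678888 (PLK1, plus), chr15:59105016-59105145 (CCNB2, plus) and chr1:43358851-43358980 (CDC20, plus).
CKS2: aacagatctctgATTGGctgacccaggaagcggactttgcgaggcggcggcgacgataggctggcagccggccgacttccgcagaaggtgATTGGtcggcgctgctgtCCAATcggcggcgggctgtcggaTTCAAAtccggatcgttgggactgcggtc
DLGAP5: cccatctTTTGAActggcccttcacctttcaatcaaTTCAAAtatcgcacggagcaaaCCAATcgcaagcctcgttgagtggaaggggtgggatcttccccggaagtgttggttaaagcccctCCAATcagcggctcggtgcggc
MKI67: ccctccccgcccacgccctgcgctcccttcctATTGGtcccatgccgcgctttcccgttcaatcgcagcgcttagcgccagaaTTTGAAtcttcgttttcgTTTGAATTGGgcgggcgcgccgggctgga
PLK1: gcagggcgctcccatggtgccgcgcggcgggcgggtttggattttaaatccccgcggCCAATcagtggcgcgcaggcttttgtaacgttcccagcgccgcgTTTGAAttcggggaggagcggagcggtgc
CCNB2: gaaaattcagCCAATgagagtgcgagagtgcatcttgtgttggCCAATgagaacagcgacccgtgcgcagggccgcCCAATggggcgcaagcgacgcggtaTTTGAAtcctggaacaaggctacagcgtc
CDC20: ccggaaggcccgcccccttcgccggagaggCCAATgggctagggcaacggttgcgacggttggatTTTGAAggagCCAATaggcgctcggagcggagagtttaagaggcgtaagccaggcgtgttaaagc

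Positions of these letters are those of their first base, with -1 the last base before the start. In the stretch of CCNB2, 3 CCAAT boxes began at -120, -87 and -54, and TTTGAA began at -29. PLK1 had TTTGAA at the same place, -29, and 1 CCAAT at -73. CKS2 also had the homology region's letters at -29, on the other strand. In MKI67, TTTGAA occurred at -47 and -29, and the latter overlapped an ATTGG. CDC20 had TTTGAA at -65, between CCAAT boxes at -100 and -55.

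Of the 30 members with a single window, 19 (63.3%) held both a CCAAT and a TTTGAA or TTCGAA, against 5.04% of the 6668 measured genes with a single window. TTTGAA or TTCGAA alone was found in 23 of the 30 (76.7%), against 10.9%, and CCAAT in 23 (76.7%), against 38.4%. These are matches of letters and not bound sites. Members with and without the letters had close medians. Counting every window, the 22 members with both kinds of letters had a median log2 ratio of RT-R to parental of -0.35, and the 13 others -0.33. By CCAAT alone, 25 of 28 members with it and 5 of 7 without it lay below 0. Their highest log2 ratios were 0.14 and 0.42. Outside the set, 588 measured genes with both kinds of letters had a median of -0.06 and 8767 without both -0.02.

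**Figure D1:**
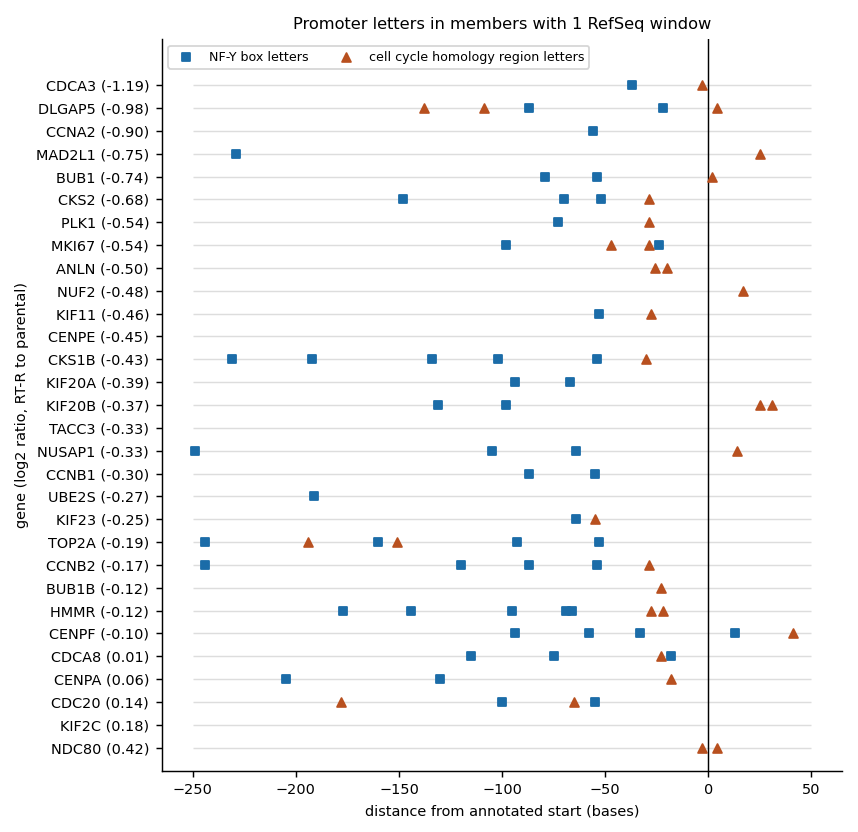
Positions of CCAAT letters (squares) and of TTTGAA or TTCGAA letters (triangles) relative to the annotated start, in bases, for the 30 members with a single promoter window, ordered by log2 ratio (in brackets). Most triangles lie close to the start, in lower and higher members alike, and CENPE, TACC3 and KIF2C hold neither kind of letter.

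As a whole the set lay lower in RT-R-MDA-MB-231 by a modest amount. Its 42 genes took 0.973% of all parental counts (0.967 to 0.9797, exact binomial interval) and 0.820% of all RT-R counts (0.815 to 0.826). Without TOP2A, which alone had 19203 and 18835 counts, the other 41 genes took 0.766% and 0.632%. The median log2 ratio of RT-R to parental, after scaling of library sizes, was -0.32, equal to 20.1% less in RT-R. The median over all 12644 measured genes was -0.01. The log2 ratio was below 0 for 36 of the 42 genes (85.7%), and for 51.0% of all measured genes. Where a library held at least 100 counts of a gene, it was below 0 for 53.2%. The same 36 to 6 split was found with 3 other scalings of the libraries (total counts, median of ratios, upper quartile).

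The differences of single genes were mostly small. A gene was counted as lower or higher when its ratio was at least 1.5-fold and its interval lay on one side of 1. By that rule 8 of the 42 genes (19.0%) fell and 0 rose, against 11.9% and 13.7% of all measured genes. At 2-fold, CDCA3 alone fell, 1 of 42 genes (2.38%) against 3.97% of all genes, and 0 rose, against 6.87%. The share at least 1.5-fold lower was thus not far above the background, whereas that at least 1.5-fold higher was 0. Leaving size aside, the interval lay below equal expression for 29 genes (69.0%) against 30.4% of all genes, and above it for 3 (7.14%) against 27.7%. With a minimum of 100 counts, which 41 of the 42 members reach, these background shares were 35.9% and 29.1%, and those at least 1.5-fold lower and higher were 11.4% and 10.5%. The median absolute log2 ratio was 0.33 in the set and 0.34 over all measured genes, with their minimum of 20 counts. It was not computed for genes with at least 100 counts, so these values are not matched for depth. The members mostly lay on 1 side of 0.

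**Figure D2:**
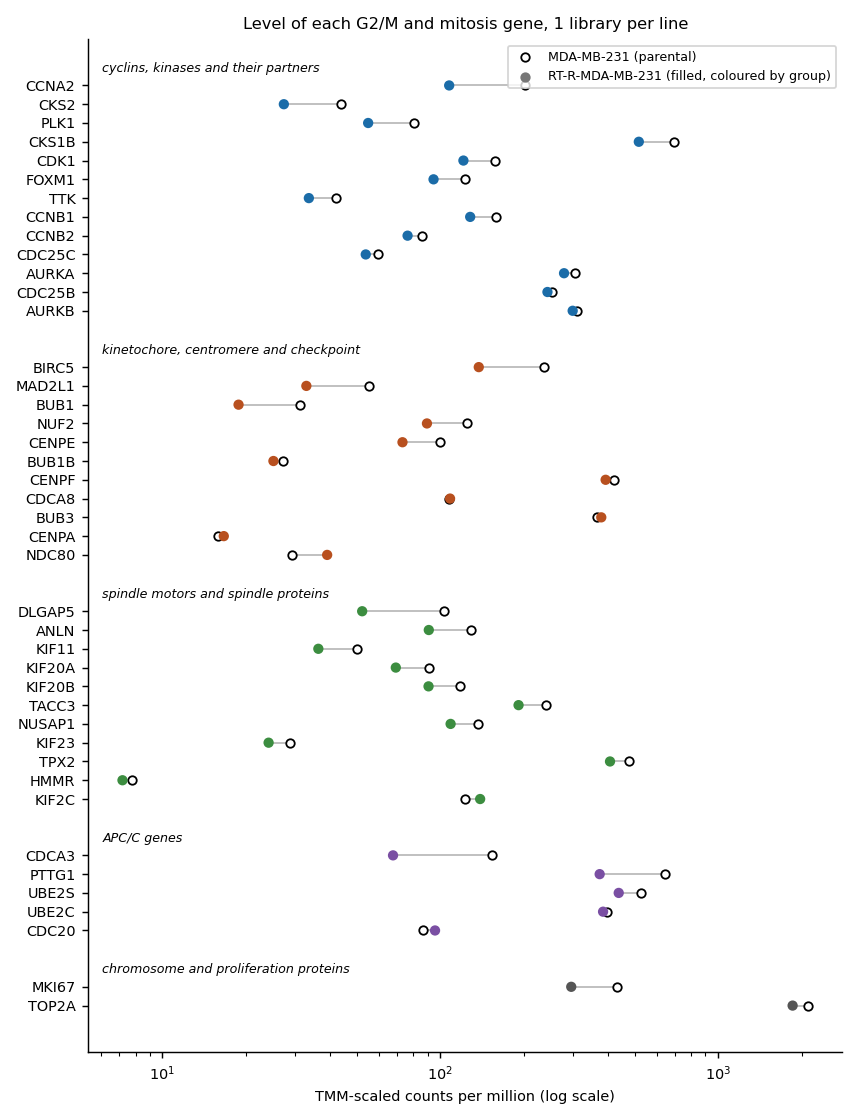
Scaled CPM (counts relative to library size, log axis) of each of the 42 genes in the parental library (open circles) and the RT-R library (filled circles, coloured by group), 1 library per line. The filled circle lies left of the open one for 36 genes, and the widest gap is that of CDCA3.

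**Figure D3:**
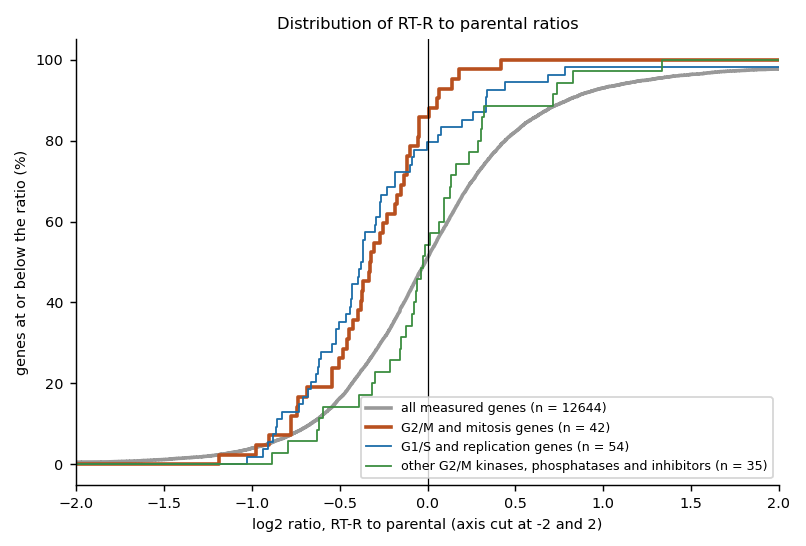
Cumulative share of genes (vertical axis, percent) at or below each log2 ratio of RT-R to parental (horizontal axis) for the 42 genes, for 54 G1/S and replication genes, for 35 other G2/M kinases, phosphatases and inhibitors and for all 12644 measured genes. The curve of the 42 genes runs left of that of all genes through its middle, reaches 85.7% at 0 and ends at 0.42.

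Among the cyclins, kinases and their partners, all 13 genes had a negative log2 ratio, with a median of -0.32, and the interval excluded equal expression for 10. CCNA2, the cyclin A of S phase and G2, had 1832 parental and 1094 RT-R counts and fell 1.87-fold (1.73 to 2.01). Its transcript end is covered in GENCODE v29 by EXOSC9 on the opposite strand, which had 1292 and 790 counts, 1.82-fold lower (1.67 to 2.00). Whether the counting used strand is not given in the sources used here, so the reads of these genes cannot be told apart with certainty. CKS2, a small protein that binds cyclin-dependent kinases, had 401 and 278 counts and fell 1.61-fold (1.38 to 1.88). Its close relative CKS1B, which also serves the ubiquitin ligase that destroys p27, had 6340 and 5266 counts, a 1.34-fold lower level (1.29 to 1.39).

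CDK1, the mitotic kinase, had 1434 parental and 1231 RT-R counts, 1.30-fold lower (1.203 to 1.40). Its cyclins were nearer to equal than cyclin A. CCNB1 had 1440 and 1302 counts, 1.23-fold lower (1.14 to 1.33), and CCNB2 had 784 and 775, 1.13-fold lower (1.02 to 1.25). The interval of each mitotic cyclin lay wholly inside the 1.5-fold limit, and neither overlapped that of CCNA2. The phosphatases of the set that remove the inhibitory phosphates from CDK1 had intervals that included equal expression: CDC25B had 2304 and 2470 counts, and CDC25C had 545 and 548. CDC25A, of the same family but not in the set, had 627 and 456 counts and fell 1.53-fold (1.36 to 1.73).

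The other mitotic kinases placed in this group ranged from PLK1, the lowest of them, to AURKB, near equal. The interval of TTK overlapped those of PLK1 and AURKA. The kinases BUB1, in the kinetochore group, and NEK2 and PLK4, outside the set, had lower ratios than PLK1 (given further on). Their intervals overlapped that of PLK1. PLK1, the polo kinase of mitotic entry and spindle assembly, had 730 and 559 counts, 1.46-fold lower (1.30 to 1.63), just short of the limit. ERN2, on the opposite strand, covers its transcript end and had 368 and 274 counts. TTK, the checkpoint kinase also called MPS1, had 383 and 342 counts, 1.25-fold lower (1.08 to 1.45). The Aurora kinases lay nearer to equal, though less so beside their chromosomal neighbours (given further on). AURKA, which acts at the spindle poles, had 2786 and 2834 counts, 1.10-fold lower (1.04 to 1.16), and AURKB, the kinase of the chromosomal passenger complex, had 2826 and 3044, a log2 ratio of -0.05 with an interval that included equal expression. FOXM1, the transcription factor that drives many of these genes in G2, had 1114 and 961 counts, 1.29-fold lower (1.18 to 1.41). It shares its end with ITFG2, which had only 3 counts and 1 count.

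**Figure D4:**
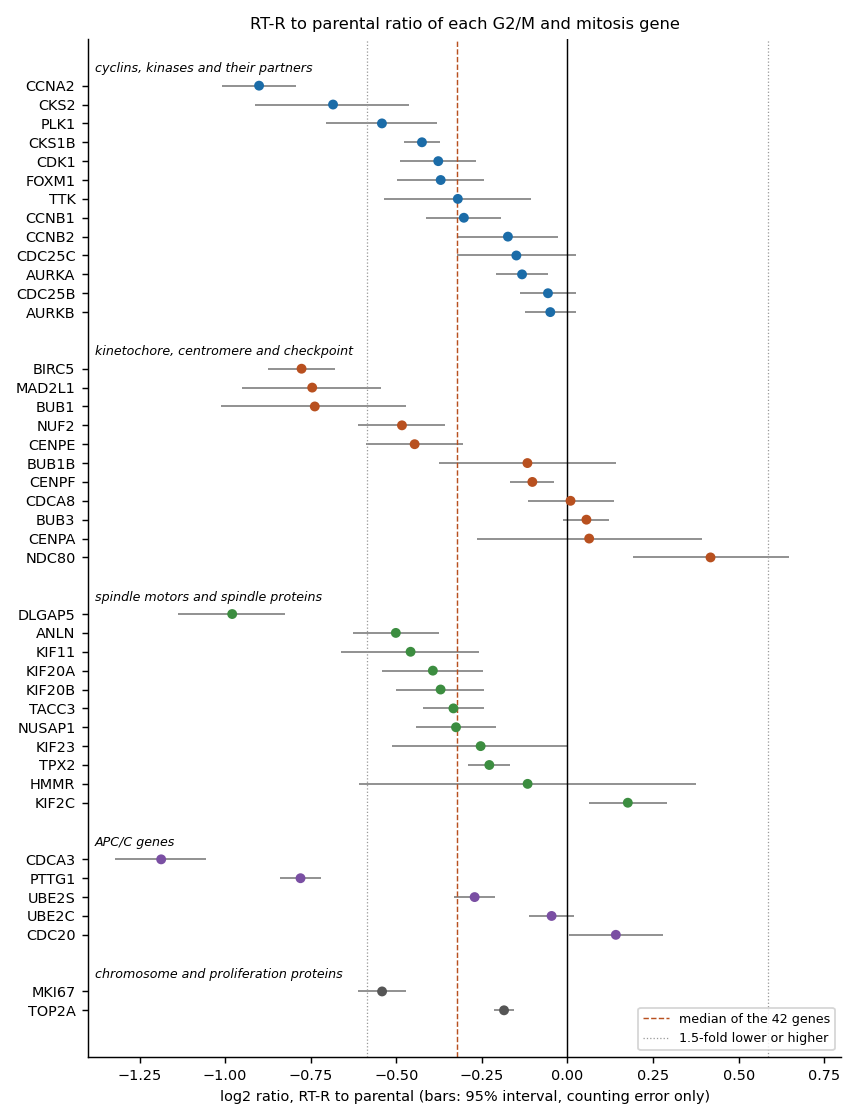
Log2 ratio of RT-R to parental of each of the 42 genes by group, with bars for the 95% interval of counting error, the median of the set (dashed) and the 1.5-fold limits (dotted). All 13 cyclins, kinases and partners lie left of 0, while the kinetochore group runs from BIRC5 at -0.78 to NDC80 at 0.42.

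Kinetochore, centromere and checkpoint genes were the most divided group. Of 11 genes, 3 fell at least 1.5-fold, 7 had a negative ratio and 4 a positive one, and the median log2 ratio was -0.12. BIRC5, which encodes survivin, had 2148 parental and 1398 RT-R counts and fell 1.71-fold (1.601 to 1.83). The other members of its chromosomal passenger complex did not share that size. CDCA8, or borealin, had 982 and 1102 counts and a log2 ratio of 0.01 (interval -0.12 to 0.13), and AURKB is given above. The scaffold INCENP, which is not in the set, had 474 and 386 counts, 1.37-fold lower (1.19 to 1.57).

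The checkpoint proteins also differed from one another. MAD2L1, the MAD2 protein that locks onto CDC20, had 504 and 335 counts and fell 1.68-fold (1.46 to 1.93). BUB1, a kinase of the outer kinetochore, had 286 and 191 counts and fell 1.67-fold (1.39 to 2.02). By contrast, BUB1B, which encodes BUBR1, had 248 and 255 counts, and BUB3, the shared partner of BUB1 and BUBR1, had 3329 and 3858. The intervals of both included equal expression. For BUB1B the interval ran from a ratio of 0.77 to 1.10, so a difference was not detectable at this depth.

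The outer kinetochore held the only member with a sizeable positive ratio. NDC80, the microtubule-binding subunit that gives the Ndc80 complex its name, had 267 parental and 398 RT-R counts, a ratio of 1.34 (1.14 to 1.57), short of the 1.5-fold limit. NUF2, which pairs with NDC80 in the same complex, had 1141 and 910 counts, 1.40-fold lower (1.28 to 1.53), and the intervals of the partners did not overlap. SPC25, from the inner end of the complex and not in the set, had 186 and 140 counts, 1.48-fold lower (1.18 to 1.86). SPC24 had 9 and 3 counts, too few to be measured. The motor CENPE, which carries chromosomes to the spindle equator, had 908 and 743 counts, 1.36-fold lower (1.24 to 1.504). CENPF, a large kinetochore protein, had 3851 and 4000 counts, a log2 ratio of -0.10. CENPA, the histone H3 variant that marks the centromere, had 145 and 169 counts, with an interval that included equal expression.

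Of the 11 spindle motors and spindle proteins, 10 had a negative log2 ratio, and the group median was -0.33. DLGAP5, a spindle protein that stabilises microtubules near chromosomes, had 941 parental and 532 RT-R counts and fell 1.97-fold (1.77 to 2.198), the only member of its group past 1.5-fold. ANLN, the anillin of the contractile ring, had 1173 and 924 counts, 1.42-fold lower (1.30 to 1.54). KIF11, the kinesin that pushes the spindle poles apart, had 456 and 370 counts, 1.37-fold lower (1.196 to 1.58). All 3 are needed at different moments, from spindle assembly to the closing of the ring.

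Among the kinesins of the central spindle, KIF20A had 828 and 703 counts, 1.31-fold lower (1.19 to 1.45), with CDC23 (309 and 282 counts) on the opposite strand over its end. KIF20B had 1069 and 922, 1.29-fold lower (1.18 to 1.41). KIF23, the motor of centralspindlin, had 262 and 245 counts, and its interval just included equal expression. Its partner RACGAP1, not in the set, had 444 and 274 counts and fell 1.81-fold (1.55 to 2.11), and the interval of KIF23, 0.998-fold to 1.43-fold lower, did not reach it. Beside its chromosomal neighbours, at 0.29, KIF23 stood at -0.54, lower than KIF11 (-0.38) and ANLN (-0.12) beside theirs. RACGAP1 stood at -0.68 beside neighbours at -0.17, so the partners lay closer together on that scale. KIF2C, which depolymerises microtubules at kinetochores, went the other way with 1122 and 1414 counts, a ratio of 1.13 (1.04 to 1.22).

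Of the remaining spindle proteins, TACC3, which bundles kinetochore fibres, had 2196 and 1944 counts, 1.26-fold lower (1.18 to 1.34). NUSAP1, a microtubule-binding protein of the nucleolus and spindle, had 1244 and 1107, 1.25-fold lower (1.15 to 1.36). TPX2, the activator of Aurora A, had 4357 and 4148, 1.17-fold lower (1.12 to 1.22). HMMR, a spindle protein also known as the hyaluronan-mediated motility receptor, had 71 and 73 counts. Its ratio had an interval from 0.66 to 1.30, the widest of the set, and no difference was detectable at this depth.

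The 5 APC/C genes ran from the lowest ratio of the set to one of its highest. CDCA3, which helps trigger mitotic entry and is itself an APC/C substrate, had 1403 parental and 687 RT-R counts and fell 2.28-fold (2.08 to 2.50). Its end is overlapped by GNB3, which had 6 and 8 counts. PTTG1, or securin, the inhibitor of the protease that opens cohesin rings, had 5861 and 3807 counts and fell 1.72-fold (1.65 to 1.79). Its intronless relatives PTTG2 (134 and 108 counts) and PTTG3P (169 and 122 counts) are close copies, so reads may be divided among them. The protease itself, separase, encoded by ESPL1 outside the set, had 179 and 164 counts, with an interval of 0.98-fold to 1.51-fold lower.

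The ubiquitin-conjugating enzymes that work with the APC/C were nearer to equal. UBE2S, which extends ubiquitin chains, had 4824 and 4458 counts, 1.21-fold lower (1.16 to 1.26), and RPL28 (2732 and 2635 counts) covers its end on the opposite strand. UBE2C, which starts the chains, had 3626 and 3916 counts and a log2 ratio of -0.05, with an interval that included equal expression. CDC20, the activator that the checkpoint restrains, had 791 and 973 counts, a ratio of 1.10 (1.003 to 1.21). FZR1, the activator that replaces CDC20 at mitotic exit and lies outside the set, had 267 and 252 counts. Among the APC/C genes of the set, CDCA3 and PTTG1 were thus lower, while UBE2S, UBE2C and CDC20 stayed inside 1.5-fold. Substrates did not all lie past that limit. Of the cyclins, which the APC/C also marks, CCNA2 was 1.87-fold lower, but CCNB1 was 1.23-fold and CCNB2 1.13-fold lower.

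The last 2 genes are proliferation markers. MKI67, the Ki-67 protein that coats mitotic chromosomes, had 3926 and 3008 counts, 1.46-fold lower (1.39 to 1.53). TOP2A, the topoisomerase that untangles sister chromatids, was 1.14-fold lower (1.11 to 1.16). The intervals of these markers did not overlap.

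The members lie on 16 chromosomes, and stretches of the genome differ between these lines, so each gene was set against the median of the 15 measured genes on each side of it. The neighbours of the 42 genes had a median log2 ratio of -0.02, and none of the set (0 of 42) is X-linked. The 424 measured genes of the X chromosome had a median of -0.78. After subtraction the median of the set was -0.31, and 35 of 42 genes lay below their neighbours. Over all measured genes with a neighbour value, that median was -0.0008, and 6244 of 12462 lay below their neighbours. ANLN on chromosome 7 had neighbours at -0.38, so -0.12 remained of its -0.50. PLK1 on chromosome 16 had neighbours at 0.19, so its distance to them was -0.73, and BIRC5 lay 0.90 below its neighbours. NDC80 on chromosome 18 stood 0.52 above its own. The Aurora kinases moved away from 0, AURKA from -0.13 to -0.35 and AURKB from -0.05 to -0.24. CCNB2 went from -0.17 to -0.41, BUB1B from -0.12 to -0.31 and NUSAP1 from -0.33 to -0.55, while TACC3 went from -0.33 to -0.13. Differences between single members thus depended in part on whether neighbours were subtracted.

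**Figure D5:**
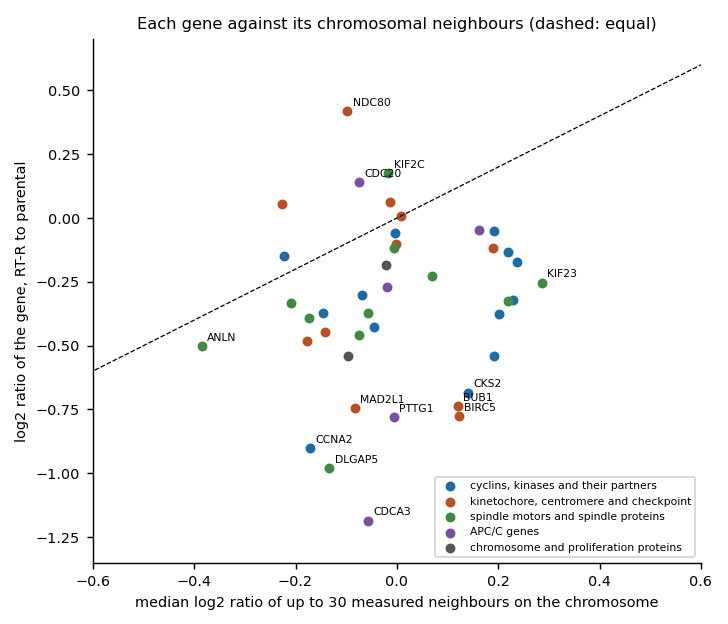
Log2 ratio of each of the 42 genes (vertical axis) against the median log2 ratio of up to 30 measured neighbours on its chromosome (horizontal axis), with the line of equality dashed. Most genes lie under the line, 35 of 42, while their neighbours spread on both sides of 0. Of all measured genes with a neighbour value (not drawn), 6244 of 12462 lay below their neighbours.

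Further genes of the same pathways were taken from lists, whose counts stand against 51.0% of all measured genes below 0, 11.9% at least 1.5-fold lower and 13.7% at least 1.5-fold higher. The lowest and highest genes named are those whose interval, by its bound nearest to 1, lay farthest from equal expression. Of 37 other kinetochore, centromere and checkpoint genes that were measured, 31 had a negative log2 ratio, 6 fell at least 1.5-fold and 1 rose, with a median of -0.25. CENPI, a subunit of the inner kinetochore, had 255 and 84 counts and fell 3.39-fold (2.64 to 4.39). It lies on the X chromosome, where its neighbours had a median of -0.81. CENPW fell 1.67-fold (1.49 to 1.87). HJURP, the chaperone that loads CENPA, had 802 and 1380 counts and rose 1.54-fold (1.41 to 1.69), beside neighbours at 0.58, and CENPH had a ratio of 1.36 (1.13 to 1.63).

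Of 37 other spindle, kinesin and cytokinesis genes, 28 were negative, 6 fell at least 1.5-fold and 0 rose, with a median of -0.20. The lowest by that rule were KIF4A, a chromosome-bound kinesin on the X chromosome that fell 2.09-fold (1.86 to 2.35), and RACGAP1, given above. The highest by that rule were KIF3A, with a ratio of 1.24 (1.07 to 1.44), and the tubulin gene TUBA1C, at 1.07 (1.052 to 1.08), which has close copies. Among 20 measured APC/C subunits and regulators the median was -0.26, 2 fell and 0 rose. ANAPC15 fell 1.75-fold (1.46 to 2.10) and ANAPC11 1.52-fold (1.45 to 1.604). CDC16 had a ratio of 1.499 (1.26 to 1.79) and the deubiquitinase gene USP37 one of 1.42 (1.21 to 1.67). Condensin and cohesin genes had a median of -0.20 over 21 genes, with 2 that fell and 1 that rose. The condensin subunit NCAPD2 fell 1.58-fold (1.44 to 1.73) and SMC1A was 1.46-fold lower (1.38 to 1.53), while the cohesin regulator PDS5B rose 1.57-fold (1.38 to 1.78) and MAU2 had a ratio of 1.41 (1.22 to 1.62).

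The kinases, phosphatases and inhibitors that regulate G2/M did not share the direction of the set. Of 35 such genes, 19 were negative and 16 positive, 5 fell at least 1.5-fold (14.3%) and 4 rose (11.4%), and the median was -0.03. These shares were close to those of all measured genes. The centrosomal kinases NEK2 and PLK4 fell 1.73-fold (1.49 to 2.01) and 1.85-fold (1.46 to 2.35). The 2 highest by the interval bound nearest to 1 were the inhibitors GADD45A and CDKN1A. GADD45A, which blocks CDK1, had 238 and 670 counts and rose 2.52-fold (2.17 to 2.94). CDKN1A, the p21 inhibitor of cyclin-dependent kinases, had 363 and 719 counts and rose 1.78-fold (1.56 to 2.02). BORA and CCNH, not inhibitors, also rose, 1.66-fold (1.46 to 1.90) and 1.64-fold (1.37 to 1.98). BORA lies on chromosome 13, beside neighbours at a log2 ratio of 0.50, and CCNH lies beside neighbours at 0.02. CDKN1B, the p27 inhibitor, had a ratio of 0.90 with an interval that included equal expression. WEE1, the kinase that restrains CDK1, had 222 and 250 counts, near equal at a ratio of 1.01 (0.84 to 1.22). The part of these inhibitors in the lower levels of the set was not tested.

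Genes of the preceding phase lay as low as the set itself. Of 54 G1/S and replication genes, 43 were negative, and the median log2 ratio was -0.37, against -0.32 in the 42 genes. In that list 15 fell at least 1.5-fold and 3 rose. GMNN, the replication licensing inhibitor geminin, fell 2.04-fold (1.75 to 2.38) and the clamp loader gene RFC2 1.92-fold (1.65 to 2.22). CCND2, which encodes cyclin D2, had 24 and 361 counts and rose 13.5-fold (8.92 to 21.3), and RB1 rose 1.72-fold (1.52 to 1.95). No test of a difference between the lists is possible with 1 library per line.

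The libraries held 9255008 parental and 10014804 RT-R counts. The markers of MDA-MB-231 were present, with 4310 and 8454 counts of VIM and 2560 and 3129 of CD44, while ESR1 had 0 counts and 1 count and PGR 0 in both. The other 2 of the 4 luminal and receptor genes listed were detected, ERBB2 with 230 and 174 counts and GATA3 with 152 and 113. Of the 5 leukocyte markers, PTPRC, CD3E and CD79A were at 0 in both libraries, and the 5 summed to 19 and 41 counts. The 4 fibroblast markers summed to 111 and 106 counts, with DCN at 0 in both, and 2 of them passed that minimum, at log2 ratios of -1.04 and 0.21. The 4 endothelial markers summed to 224 and 56, of which PECAM1 held 223 and 50. The part of these markers in the results was not tested.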

How the data were processed

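Per the labels' protocols, total RNA of each line was made into a Lexogen QuantSeq 3' tag library. The deposited tables hold unnormalized integer counts for 25737 rows of gene symbols per library. The submitters' processing notes list the hg19 build and the tools Bowtie2, bedtools and bcl2fastq (version 2.20.0.422). What each tool did, which annotation was used, and how strand and multiply matching reads were treated is not given in the sources used here.

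Repeated symbols were summed. TMM scaling (edgeR 4.0.16, R 4.3.3, used for nothing else) put the RT-R library at 1.12 times the parental one. Log2 ratios used scaled counts plus 0.5, and ratios carry exact conditional (Clopper-Pearson) intervals from scipy 1.17.1. No p-value was computed. In the split of the set, BIRC5 and CDCA8 were placed with the kinetochore genes, AURKB with the kinases, and TOP2A and MKI67 apart. Values are given for all members, and for the 2 lowest and 2 highest genes of each further list, ranked by the interval bound nearest to 1. INCENP, SPC24, SPC25, ESPL1, FZR1, RACGAP1, WEE1 and CDC25A were also named, as partners or relatives of members, after values were seen. BORA, CCNH and CDKN1B were added likewise, to set the highest genes of their list beside others of it. The members, lists and tests were chosen with earlier results of these data known. In the further lists, 4 genes stood under older symbols and CENPX was not matched. Gene order came from the RefSeq table of GRCh38.p14, which placed 98.6% of measured genes, and promoters from the RefSeq promoter table. The calculations were tested on simulated data with counting error alone, so that test does not cover spread between cultures or PCR copies. The alternatives were other scalings (including DESeq2 1.42.0 size factors), count minimums, pseudocounts, means, fold alone, subtraction of chromosomal neighbours and leaving out 5 members with uncertain reads.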

Additional observations from a re-analysis of the deposited data

How the results depend on the processing

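No paired analysis was possible because each line had 1 library, and no library could be left out. Under 3 other scalings, count minimums of 0 and 100, a pseudocount of 5, subtraction of chromosomal neighbours, fold alone and, added after the data were seen, omission of the 5 members with uncertain reads (CCNA2, KIF20A, PLK1, UBE2S and PTTG1), the members at least 1.5-fold lower numbered 6 to 9 and those at least 1.5-fold higher 0. The members with an interval below equal expression numbered 24 to 32. The median of the set ran from -0.28 to -0.33 over these settings and the mean. The kinetochore median of -0.12 became -0.31 with chromosomal neighbours subtracted and -0.26 as a mean. The APC/C median of -0.27 became -0.43 as a mean and -0.046 without the uncertain members, and that of MKI67 and TOP2A went from -0.36 to -0.30 with neighbours subtracted. The cause was not tested. Among single genes, CDC25C changed sign when neighbours were subtracted, from -0.15 to 0.07. HMMR has too few counts to show a difference of the size of the set's median. The log2 interval of CENPA, -0.27 to 0.39, was wide but lay above the set's median of -0.32.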

Other observations

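Several of the further mitosis genes with ratios far from 0 lay in stretches of chromosome that differed between the lines in the same direction. On chromosome 13 the cohesin regulator PDS5B had a log2 ratio of 0.65 beside neighbours at 0.83, and the APC/C subunit CDC16 had 0.58 beside neighbours at 0.78. On the same chromosome, RB1 had 0.78 beside 0.38, and BORA had 0.73 beside 0.50. On chromosome 2 the centromere chaperone HJURP had 0.63 beside 0.58, and USP37 had 0.51 beside 0.57. On the X chromosome, KIF4A had -1.06 beside -0.86 and SMC1A -0.54 beside -0.57, whereas CENPI had -1.75 beside -0.81. CDKN1A had 0.83 beside neighbours at -0.07, and CCND2 had 3.73 beside -0.22. GADD45A, at 1.33 beside 0.37, and GMNN, at -1.03 beside -0.42, lay farther from 0 than neighbours of the same sign.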
